A study of Mus musculus with 16 samples.

Results

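The dystrophin glycoprotein complex was followed through 8 of its genes (*Dmd*, *Utrn*, *Dag1*, *Sgca*, *Sgcb*, *Sgcd*, *Sntb1* and *Dtna*), chosen by name among the 24454 genes with a deposited count in *gastrocnemius* muscle of 16 mice. All 8 passed the filter on low counts and were tested among 15487 genes. HSALR mice, homozygous animals of the line LR20b, carry a human skeletal actin transgene with an expanded CTG repeat that is expressed in skeletal muscle alone, and they serve as a model of myotonic dystrophy. They had received vehicle (n = 5) or AICAR (n = 5). Control mice were of the FVB/N strain, the background of the line, without the transgene, and had received vehicle (n = 3) or AICAR (n = 3). All mice were 3 months old. AICAR, an activator of AMP-activated protein kinase, was given at 500 mg/kg for 7 days. Each library held the RNA of whole muscle from 1 mouse, identified below by the number on its label, and the transgene transcript itself was not measured here, so the genotype labels have no direct check.

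The genes differ in size and place. *Dmd* spans 2390.4 kb of chromosome X (GRCm38.p6, positions 82814664 to 85205050, plus strand), and *Utrn* spans 487.7 kb of chromosome 10 (12382187 to 12869888, minus strand). *Dag1* lies on chromosome 9 (108204861 to 108263977, minus strand). *Sgca* and *Sgcd* both lie on the minus strand of chromosome 11 (94962777 to 94976327 and 46971077 to 47989451), and *Sgcb* lies on chromosome 5 (73632749 to 73647737, minus strand). *Sntb1* lies on chromosome 15 (55636388 to 55907302, minus strand) and *Dtna* on chromosome 18 (23310006 to 23659719, plus strand). Reads were counted over all annotated exons of a gene, so muscle and non-muscle isoforms of *Dmd*, *Utrn* and *Dtna* entered a single value. The exons of *Dtna* shared 90 bp with the antisense gene *Gm47898*, and without knowledge of whether strand was used in counting, reads of the pair cannot be told apart there.

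In muscle fibres, dystrophin ties the actin cytoskeleton to dystroglycan in the membrane, and dystroglycan binds laminin in the basal lamina. The sarcoglycans form a unit of membrane proteins beside dystroglycan, while syntrophins and dystrobrevin attach to dystrophin on the cytoplasmic side and bring signalling proteins to it. Utrophin is the relative of dystrophin that is concentrated at the neuromuscular junction and is also made by vessels and other cells of the muscle, and loss of dystrophin or of a sarcoglycan causes muscular dystrophy.

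Sequences upstream of 3 genes are printed because their genes stood for the 3 outcomes among the members, a gene without a call (*Dmd*), a gene higher in HSALR muscle (*Sgca*) and a gene lower in it (*Utrn*). Each is the 250 bases before a RefSeq start (GRCm38.p6) on the gene's own strand. Capitals mark E-boxes (CANNTG, the class of site bound by MyoD and its relatives), the MEF2 box and the CArG box (bound by serum response factor), searched on both strands, and sites whose letters overlap or adjoin form a single run. The *Dmd* sequence is chrX:82948620-82948869 (plus strand), the *Sgca* sequence chr11:94976328-94976577 (minus strand) and the *Utrn* sequence chr10:12861736-12861985 (minus strand).
Dmd: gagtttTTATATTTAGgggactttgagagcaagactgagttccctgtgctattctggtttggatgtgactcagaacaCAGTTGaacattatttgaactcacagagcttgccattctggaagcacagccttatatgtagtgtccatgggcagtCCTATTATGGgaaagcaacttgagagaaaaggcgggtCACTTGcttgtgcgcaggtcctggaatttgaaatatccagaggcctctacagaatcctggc
Sgca: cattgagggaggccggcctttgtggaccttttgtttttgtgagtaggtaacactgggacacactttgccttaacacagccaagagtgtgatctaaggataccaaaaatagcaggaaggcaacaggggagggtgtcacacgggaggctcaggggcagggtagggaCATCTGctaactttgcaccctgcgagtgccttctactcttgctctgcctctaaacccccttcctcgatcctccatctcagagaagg
Utrn: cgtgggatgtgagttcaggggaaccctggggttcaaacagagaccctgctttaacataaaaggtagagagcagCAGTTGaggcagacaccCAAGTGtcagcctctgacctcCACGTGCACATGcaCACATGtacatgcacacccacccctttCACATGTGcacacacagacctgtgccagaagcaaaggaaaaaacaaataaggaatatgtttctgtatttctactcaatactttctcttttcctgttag
The *Dmd* sequence held a CArG box that began 98 bases and a MEF2 box that began 244 bases before the start. Of 32851 RefSeq promoters of the same length, 1.47% held a CArG box and 1.69% a MEF2 box. E-boxes were present 2 times in the *Dmd* sequence, once in that of *Sgca* and 7 times in that of *Utrn*, where 66.2% of all promoters held at least 1. Of the 7 in *Utrn*, those that began 98 and 96 bases before the start overlapped. Promoter sequences of 6 members were searched, and no other CArG or MEF2 box was found in them. A downstream start of *Dmd* (chrX:85048045-85048294, + strand), whose sequence is not shown, held no E-box, MEF2 box or CArG box. The starts used for *Dmd* and *Utrn* lie inside the annotated span of each gene, so other starts exist upstream of them, and the data do not show which start the reads came from. A match is a description of letters and not of binding.

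Gene counts summed to 64890014 in the shallowest and 81987726 in the deepest library. The members held between 437 reads (*Sntb1*) and 37129 reads (*Dag1*) in a mouse. Libraries were scaled by TMM in edgeR, and levels are given as normalized CPM, the reads of a gene set to a common library size. Markers of muscle fibres made up 109392 to 152112 normalized CPM in each mouse. Epidermal keratin *Krt14* exceeded 1 normalized CPM in 1 of 3 vehicle-treated and 1 of 3 AICAR-treated control mice, in 4 of 5 vehicle-treated HSALR mice and in 0 of 5 AICAR-treated HSALR mice. The summed level of 8 epidermal markers was 0.256 to 92.3, 0.243 to 104, 0.612 to 187 and 0.242 to 0.371 normalized CPM in these groups, and 2 of the 8 were at 0 in every AICAR-treated HSALR mouse. The AICAR-treated control mouse S449 was highest of its group for 7 of the 8 members. Its summed fibre markers were 152112 against 115848 and 117566 normalized CPM in the other mice of its group. *Myh4* was 77356 normalized CPM in S449 against 49397 in S447 and 46589 in S448. *Acta1*, *Ckm*, *Myh1* and *Tnnt3* were also highest in S449, while *Mb*, *Myh7* and *Myh2* were lowest there. Summed Schwann cell markers were 78.8 in S449 against 208 and 225 in the other mice of its group. The vehicle-treated HSALR mouse S458 was lowest of its group for 6 of the 8 members. Across genes, the deviation of each library from the mean of all libraries was related to gene length, with Spearman's rho between -0.329 in S458 and 0.272 in S449 (15487 genes, which are not independent). The part of epidermal RNA, fibre markers and gene length in the results was not tested beyond the values given beside them.

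Per kb of counted length, *Dag1* and *Sgca* were the most abundant members in vehicle-treated control muscle, at 68.8 ± 4.10 and 68.5 ± 0.439 normalized CPM per kb (SD, n = 3), and did not differ beyond their spread. *Sgcb* followed at 38.2 ± 2.46, *Sgcd* at 27.5 ± 1.53, *Dmd* at 20.4 ± 0.916 and *Dtna* at 17.1 ± 0.258 normalized CPM per kb, with ranges that did not overlap between neighbours. *Utrn* was lower, at 5.40 ± 0.171, and *Sntb1* lowest, at 3.20 ± 0.394 normalized CPM per kb. In vehicle-treated HSALR muscle *Sgca* was the most abundant, at 90.9 ± 9.27 against 58.6 ± 2.88 normalized CPM per kb for *Dag1* (n = 5), and *Sntb1* (10.2 ± 1.83) stood above *Utrn* (4.02 ± 0.436) in every mouse.

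**Figure D1:**
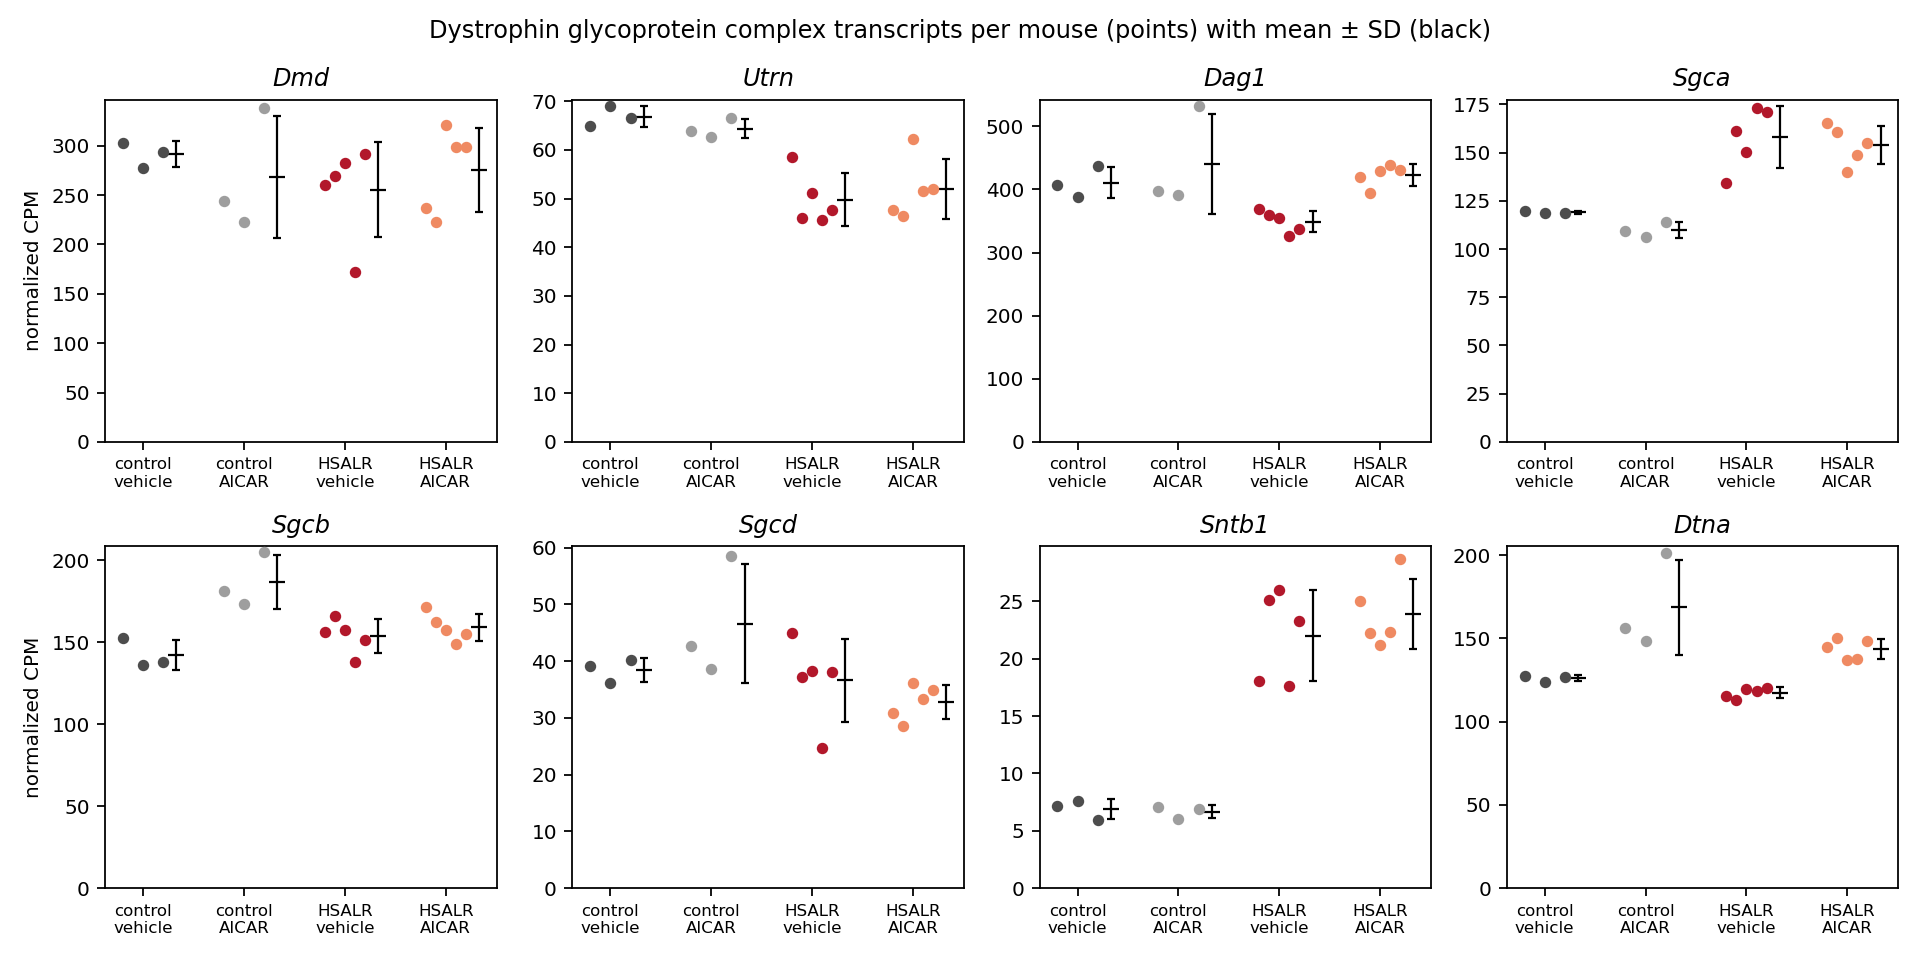
Normalized CPM (y axis, from 0) of the 8 members in each mouse (points), by genotype and treatment (x axis), with the mean ± SD of each group in black. *Sntb1* lay between 17.6 and 28.7 in the 10 HSALR mice and between 5.94 and 7.57 in the 6 control mice, and the AICAR-treated control mouse S449 stands above its group for *Dmd*, *Dag1*, *Sgcd* and *Dtna*.

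HSALR muscle was compared with control muscle after vehicle to ask which genes of the complex differed with the repeat transgene. *Sntb1* and *Sgca* were higher, *Utrn* was lower, and the other 5 members did not pass the threshold (quasi-likelihood test of edgeR, p adjusted by Benjamini-Hochberg over all genes tested, under 0.05). Of all genes tested, 26.9% passed it in this comparison, 15.4% as higher and 11.5% as lower, beside 2 and 1 of the 8 members. The median log2 fold change of the members was -0.09, against 0.01 over all genes.

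*Sntb1* encodes beta1-syntrophin, an adaptor that binds dystrophin and its relatives. Its level was 7.14, 7.57 and 5.94 normalized CPM in the vehicle-treated control mice S445, S446 and S450, and 18.02, 25.1, 26.0, 17.6 and 23.3 in the HSALR mice S451, S452, S453, S458 and S459. The lowest HSALR mouse was above the highest control mouse by more than the range of the controls. The level was 3.19-fold higher in HSALR muscle (95% interval 2.57 to 3.98; log2 fold change 1.68, SE 0.15, adjusted p = 1.64e-06, edgeR). The call was kept without any 1 mouse. The log2 fold change was 1.29 without the libraries in which *Krt14* exceeded 1 normalized CPM, a fit that leaves 1 vehicle-treated HSALR mouse (S451).

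*Sgca*, the gene of alpha-sarcoglycan, lay at 119.9, 119 and 118 normalized CPM in the control mice and at 134, 161, 150.3, 173 and 171 in the HSALR mice S451, S452, S453, S458 and S459. The groups did not overlap, and the 3 control mice were close to each other. The difference was 0.41 on the log2 scale (SE 0.08, adjusted p = 0.00118, edgeR) and passed without any 1 mouse. Without the libraries with *Krt14* it was 0.16 (adjusted p = 0.439), with S451 as the single vehicle-treated HSALR mouse. In the AICAR-treated HSALR mice, where *Krt14* stayed at or under 1 normalized CPM in every library, *Sgca* lay between 140.1 and 166 normalized CPM.

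*Utrn* was 64.9, 69.1 and 66.6 normalized CPM in control muscle and 58.6, 45.9, 51.1, 45.6 and 47.7 in HSALR muscle. Every HSALR mouse was below every control mouse, with S451 nearest to the controls. The log2 fold change was -0.43 (SE 0.09, adjusted p = 0.00294, edgeR), it passed without any 1 mouse, and it was -0.20 (adjusted p = 0.529) without the libraries with *Krt14*. Whole muscle was sequenced, so fewer cells of a type and less RNA per cell cannot be told apart. Of 6 endothelial markers, 5 were lower in HSALR muscle, with a summed level of 190.2 to 242 against 282 to 312 normalized CPM in control mice and no marker at 0, where 11.5% of all genes were lower. Of 6 smooth muscle and pericyte markers 3 were lower, and of 6 macrophage markers 2 were higher, beside 11.5% and 15.4% of all genes. Of 8 fibre markers 3 were higher and 1 lower. Among them *Myh1* was 3513 to 5408 normalized CPM in control and 9473 to 17612 in HSALR mice. The part of these marker lists in the *Sntb1*, *Sgca* and *Utrn* results was not tested.

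*Dmd* lay at 303, 277 and 294 normalized CPM in control muscle and at 261, 269.8, 283, 172 and 292 in HSALR muscle. S458 was the low mouse, and the other 4 HSALR mice overlapped with the controls or lay just below them. The log2 fold change was -0.19 with a 95% interval from -0.55 to 0.17 (adjusted p = 0.443, edgeR), and -0.08 without S458. Reads per kb of *Utrn* relative to *Dmd* were 0.264-fold in control and 0.227-fold in HSALR muscle, and the log2 ratio did not differ beyond the spread between mice (-1.92 ± 0.11 against -2.14 ± 0.30, exact permutation test, two-sided, p = 0.286).

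*Dag1*, which encodes both subunits of dystroglycan, was 406, 388 and 437 normalized CPM in control and 369, 359, 355, 326 and 338 in HSALR muscle. The groups did not overlap, as was the case for 5 members in this comparison beside 29.7% of all genes, but the log2 fold change of -0.23 missed the threshold (SE 0.09, adjusted p = 0.0574, edgeR). It passed with DESeq2 (adjusted p = 0.0348), with edgeR on the compared groups alone (adjusted p = 0.0342) and with library size scaling (adjusted p = 0.0413). The estimate was smaller and not past the threshold with a correction for gene length (-0.12, adjusted p = 0.252, edgeR) and without the libraries with *Krt14* (-0.11, adjusted p = 0.74, edgeR), a fit with 1 vehicle-treated HSALR mouse. *Dtna*, the gene of alpha-dystrobrevin, likewise did not overlap (124 to 128 against 113 to 121 normalized CPM), with a log2 fold change of -0.10 (adjusted p = 0.345). *Sgcb* and *Sgcd*, which encode beta- and delta-sarcoglycan, overlapped between the groups, with log2 fold changes of 0.11 (95% interval -0.04 to 0.26) and -0.07 (-0.41 to 0.26).

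The difference between genotypes after vehicle fell with gene length. Across 15487 genes the log2 fold change had a Spearman's rho of -0.260 with counted length, and with genes split by length into 10 classes of equal size its median was 0.17 in the shortest class and -0.16 in the longest. *Dmd* (14263 bp), *Utrn* (12382 bp) and *Dtna* (7392 bp) belonged to class 10, the longest, and *Dag1* (5961 bp) to class 9, while *Sgca* (1738 bp) and *Sntb1* (2153 bp) were in classes 3 and 4. With a correction of each library for gene length, *Utrn* was -0.22 (adjusted p = 0.0185), *Sgca* 0.33 (adjusted p = 0.00249) and *Sntb1* 1.63 (adjusted p = 3.3e-06), the *Dag1* estimate became -0.12 (adjusted p = 0.252), and the *Dmd* and *Dtna* estimates both became 0.03.

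**Figure D2:**
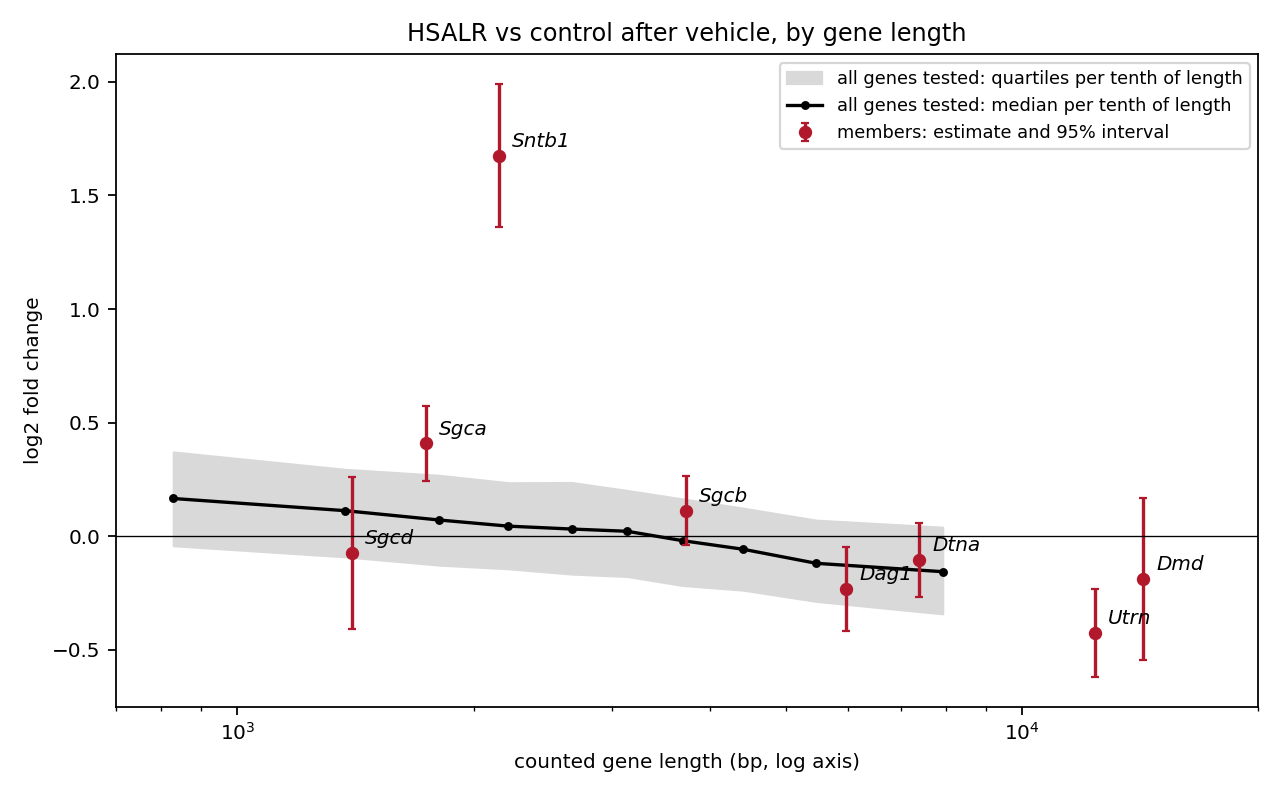
Log2 fold change of HSALR against control muscle after vehicle (y axis) by counted gene length in bp (x axis, log scale). The black line and grey band give the median and quartiles of all genes tested per class of length, from 0.17 to -0.16 for the medians. Red points give the members with 95% intervals, of which *Sntb1* and *Sgca* lie above the band. The band ends at 7920.5 bp, the median length of the longest class. *Utrn* (-0.43) lies beyond that end and is below the lower quartile of the class (-0.34).

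HSALR and control muscle were compared again after AICAR, in other mice. Of the 8 members, 2 were higher and 4 lower, beside 12.2% and 9.64% of all genes, or 21.8% in either direction. The median log2 fold change was -0.14, against 0.00 over all genes. Without the control mouse S449 the calls were 2, *Sntb1* and *Sgca*, beside 2615 of 15669 genes, and none of the 4 lower members was past the threshold.

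*Sntb1* was 7.07, 5.99 and 6.93 normalized CPM in the AICAR-treated control mice S447, S448 and S449 and 25.0, 22.2, 21.2, 22.4 and 28.7 in the AICAR-treated HSALR mice S454, S455, S460, S462 and S463. The groups did not overlap. The fold change was 3.58 (95% interval 2.87 to 4.47; log2 fold change 1.84, SE 0.15, adjusted p = 1.45e-06, edgeR). *Sgca* was 109, 106 and 114 in control and 166, 161, 140.1, 149 and 155 normalized CPM in HSALR muscle, again without overlap (log2 fold change 0.49, SE 0.08, adjusted p = 4.54e-04, edgeR). Both calls were kept without any 1 mouse and without the libraries with *Krt14*, and without S449 the log2 fold changes were 1.87 and 0.52.

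*Utrn* was 64.0, 62.7 and 66.5 normalized CPM in control and 47.7, 46.4, 62.3, 51.5 and 52.0 in HSALR muscle after AICAR. S460 lay just under the control mice and the other 4 HSALR mice clearly below. The log2 fold change of -0.31 passed the threshold (SE 0.09, adjusted p = 0.0253, edgeR), but it passed in 3 of the 8 fits without 1 mouse, was -0.29 (adjusted p = 0.0813) without S449, and with the length correction it was -0.17 (adjusted p = 0.0731). The endothelial markers summed to 285 to 303 normalized CPM in these control mice and 230.4 to 249.95 in the HSALR mice, and 2 of the 6 were lower, beside 9.64% of all genes. Of 8 fibre markers 3 were higher and 1 lower, beside 12.2% and 9.64% of all genes.

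*Sgcd* was 42.7, 38.6 and 58.5 normalized CPM in AICAR-treated control mice and 30.9, 28.6, 36.1, 33.4 and 34.9 in AICAR-treated HSALR mice. The groups did not overlap, and S449 was the high value. The log2 fold change was -0.51 (SE 0.16, adjusted p = 0.0294, edgeR) and -0.31 (adjusted p = 0.189) without S449. *Sgcb* was lower by the same test (log2 fold change -0.23, SE 0.07, adjusted p = 0.0299), as was *Dtna* (-0.23, SE 0.08, adjusted p = 0.0413), and without S449 these were -0.16 and -0.08, neither past the threshold. Of the 8 fits without 1 mouse, *Sgcd* passed in 5, *Sgcb* in 4 and *Dtna* in 3. Without S454 only 3 members were called in all, beside 2622 of 15464 genes. The count was 4 with the length correction, beside 3139 of 15487 genes, and the calls of *Utrn* and *Dtna* (-0.12, adjusted p = 0.292, edgeR) ended. It was 5 with limma-voom, beside 3253 of 15487 genes, where *Dtna* missed the threshold (adjusted p = 0.0512). Without the libraries with *Krt14* it was also 5, beside 2410 of 15584 genes, and *Utrn* missed the threshold (adjusted p = 0.0577, edgeR). *Dmd* (0.04, 95% interval -0.32 to 0.40) and *Dag1* (-0.06, -0.24 to 0.13) had no call, and without S449 these were 0.24 and 0.10. In all, 5 members did not overlap between these groups, beside 26.5% of all genes.

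**Figure D3:**
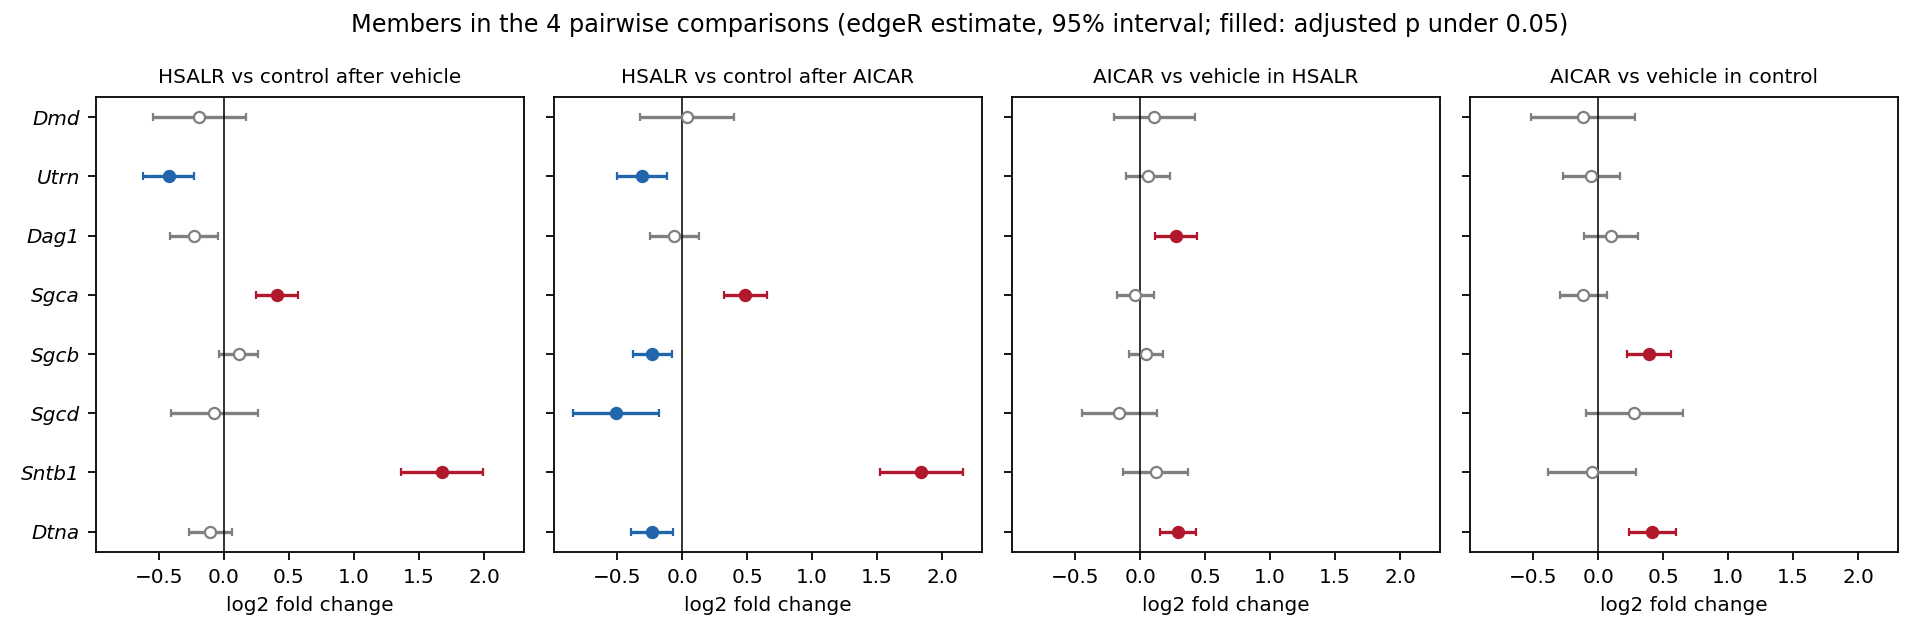
Log2 fold change of the 8 members (x axis) in the 4 pairwise comparisons, with 95% intervals from edgeR. Filled points passed an adjusted p of 0.05, red for higher and blue for lower. *Sntb1* stood at 1.68 and 1.84 in the comparisons of genotype and at 0.12 and -0.05 in those of AICAR.

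AICAR was compared with vehicle in HSALR muscle to ask whether the treatment moved these genes. *Dag1* and *Dtna* rose, beside 13.7% of all genes (26.6% in either direction), and the other 6 members did not pass the threshold. The median log2 fold change of the members was 0.09, against -0.02 over all genes. *Dag1* went from 326 to 369 normalized CPM over the 5 vehicle-treated mice to 419.6, 394, 429.7, 439 and 431 in the 5 AICAR-treated mice. No AICAR-treated mouse was as low as any vehicle-treated mouse. The log2 fold change was 0.28 (SE 0.08, adjusted p = 0.0141, edgeR).

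*Dtna* was 115, 113, 119.8, 118 and 121 normalized CPM after vehicle and 145, 150.0, 137, 138 and 148 after AICAR in HSALR muscle. These groups did not overlap either, the case for 2 members beside 17.7% of all genes. The log2 fold change was 0.29 (SE 0.07, adjusted p = 0.00469, edgeR), and both calls were kept in all 10 fits without 1 mouse. Without the libraries with *Krt14*, which leaves S451 as the only vehicle-treated mouse, the estimates were 0.19 for *Dag1* and 0.32 for *Dtna*, neither past the threshold (adjusted p = 0.448 and 0.161, edgeR). All 8 epidermal markers were lower after AICAR in HSALR muscle with edgeR, where 13.0% of all genes were, and with DESeq2. With limma-voom 0 of the 8 passed (2 at an unadjusted p under 0.05). Their summed level was 0.612 normalized CPM in the vehicle-treated mouse S451 and 18.6 to 187 in the other 4, against 0.242 to 0.371 in the AICAR-treated HSALR mice.

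Markers of other cell types were counted as well after AICAR in HSALR muscle, where 13.7% of all genes were higher and 13.0% lower. Of 6 fibroblast markers, 3 were lower, *Col1a1* (log2 fold change -0.92), *Col1a2* (-0.65) and *Lum* (-0.43), and the 6 summed to 1228 to 1606 normalized CPM after vehicle and 999 to 1272 after AICAR. Of 6 endothelial markers, *Tie1* (0.41) and *Pecam1* (0.31) were higher, with sums of 190.2 to 242 and 230.4 to 249.95. The 6 macrophage markers, of which 2 were higher and 1 lower, summed to 98.3 to 119 and 96.2 to 137, and the 6 of smooth muscle and pericytes, with 1 higher and 1 lower, to 381 to 428 and 355 to 413. No marker of these lists was at 0 in every mouse. With edgeR 0 markers of fibres, Schwann cells and adipocytes were called (0, 1 and 2 at an unadjusted p under 0.05), with DESeq2 1 of adipocytes and with limma-voom 0. The part of any marker list in the *Dag1* and *Dtna* results was not tested.

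*Sntb1* (log2 fold change 0.12, 95% interval -0.13 to 0.37), *Sgca* (-0.04, -0.18 to 0.10) and *Utrn* (0.06, -0.11 to 0.23) had no call after AICAR in HSALR muscle. These are the 3 members that differed by genotype after vehicle. In AICAR-treated HSALR against vehicle-treated control mice, the same 3 members passed the threshold, beside 37.2% of all genes, with log2 fold changes of 1.79 (*Sntb1*), 0.37 (*Sgca*) and -0.36 (*Utrn*). That comparison shares its groups with the others and is not separate evidence, and with the length correction the *Utrn* value was -0.16 (adjusted p = 0.0643, edgeR). With that correction 4 members were called, since *Dtna* (0.32, adjusted p = 0.00493, edgeR) and *Sgcb* (0.20, adjusted p = 0.0362, edgeR) passed as well as *Sntb1* and *Sgca*. Of 15487 genes, 3071 were higher and 2280 lower in that fit.

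AICAR was compared with vehicle in control muscle as well. *Sgcb* and *Dtna* rose, beside 8.40% of all genes (13.2% in either direction), and no member fell. The median log2 fold change of the members was 0.03, against -0.01 over all genes. *Sgcb* was 153, 136 and 138 normalized CPM after vehicle and 181, 174 and 205 after AICAR, without overlap (log2 fold change 0.39, SE 0.08, adjusted p = 0.00518, edgeR). *Dtna* was 128, 124 and 127 after vehicle and 156, 149 and 201 normalized CPM after AICAR, again without overlap and with S449 as the high mouse (log2 fold change 0.42, SE 0.09, adjusted p = 0.00534). Fitted on the 2 control groups alone, *Dtna* no longer passed (log2 fold change 0.41, adjusted p = 0.0733, edgeR), while *Sgcb* did (0.38, adjusted p = 0.042).

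Without S449 the values were 0.32 and 0.27, both still past the threshold. With 3 mice against 3, 3 members did not overlap between groups, and so did not 33.1% of all genes. *Dmd* was 244, 222 and 338 normalized CPM after AICAR, a wider range than after vehicle, and had no call (log2 fold change -0.12, 95% interval -0.52 to 0.28; -0.32 without S449). *Dag1* was 397, 392 and 532, with a log2 fold change of 0.10 that turned to -0.06 without S449.

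The AICAR effects of the genotypes were compared by their difference. In edgeR 0 of 8 members passed the threshold, beside 0.691% of all genes. At an unadjusted p under 0.05 there was 1 member, *Sgcb*, with DESeq2 there was 1, *Sgcb* again (adjusted p = 0.0481), and with limma-voom 0. The effect on *Sgcb* was 0.39 in control and 0.05 in HSALR muscle on the log2 scale, a difference of -0.34 (95% interval -0.56 to -0.13, adjusted p = 0.128, edgeR). For *Dtna*, higher after AICAR in both genotypes, the difference was -0.13 (-0.36 to 0.10), and for *Dag1* it was 0.18 (-0.09 to 0.44). Without S449 these differences were -0.27 for *Sgcb*, 0.02 for *Dtna* and 0.33 for *Dag1*, none past the threshold. Each of these comparisons shares groups with those above.

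Ratios within a library do not depend on the scaling between libraries. The log2 ratio of *Utrn* to *Dmd* in reads per kb was -1.83 ± 0.28 in AICAR-treated control and -2.20 ± 0.12 in AICAR-treated HSALR muscle, and the ranges overlapped (exact permutation test, two-sided, p = 0.0536). Between treatments the exact permutation test gave p = 0.706 in HSALR and p = 0.7 in control muscle. *Dtna* made up 97.4% to 98.7% of the dystrobrevin reads per kb in every mouse, with *Dtnb*, the gene of beta-dystrobrevin, holding the rest. Its share was 97.8 ± 0.325% after vehicle and 98.5 ± 0.179% after AICAR in control muscle, without overlap (exact permutation p = 0.1, the smallest possible for 3 against 3). None of the 8 tests of the ratio and this share passed, and the smallest p adjusted over them by Benjamini-Hochberg was 0.2 (exact permutation tests).

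The other genes of the complex were taken from a list, of which 10 are reported and 8 were tested. After vehicle, 2 were higher in HSALR muscle, *Cav3* (caveolin-3, which shapes the caveolae of the fibre membrane, log2 fold change 0.56, adjusted p = 0.000205, edgeR) and *Sspn* (sarcospan, a membrane partner of the sarcoglycans, 0.38, adjusted p = 0.002), and the other 6 did not pass. These 2 of 8 stood beside 15.4% of all genes that were higher and 26.9% called in either direction. The median over the 8 was -0.14, against 0.01 over all genes. After AICAR 1 was higher in HSALR muscle, *Cav3* (0.33), beside 12.2% of all genes, and the median was 0.07.

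After AICAR in HSALR muscle *Nos1*, the neuronal nitric oxide synthase that the complex holds at the membrane, was higher (log2 fold change 1.11, SE 0.22, adjusted p = 0.00196, edgeR). *Nos1* was 60.6 to 89.7 normalized CPM after vehicle, and 177, 157, 90.7, 169.7 and 200.1 after AICAR. S460 was the low AICAR-treated mouse. *Cav3* was lower after AICAR, with a log2 fold change of -0.27, and the other 6 of the 8 did not pass, where 26.6% of all genes were called. In control muscle 0 of these 8 genes passed in edgeR, beside 13.2% of all genes, with 1 at an unadjusted p under 0.05, 1 with DESeq2 and 0 with limma-voom, and *Nos1* reached 209.9 normalized CPM in S449 against 96.5 and 108 in the other AICAR-treated control mice.

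On the outer side, 13 genes of laminins, other basal lamina proteins and the integrin receptor were tested. *Itgb1*, the beta1 integrin that pairs with alpha7 in muscle as another laminin receptor, was higher in HSALR muscle after vehicle (log2 fold change 0.70, SE 0.06, adjusted p = 1.02e-06, edgeR) and *Agrn*, the gene of agrin, was lower (-0.37), with 11 not past the threshold, where 26.9% of all genes were called. After AICAR 1 was higher and 4 lower, beside 12.2% and 9.64% of all genes, with *Hspg2* (perlecan) at -0.49 and *Lamb2*, a laminin chain of synapses and vessels, at -0.35. The median of the list was -0.14 in both comparisons of genotype. The gene of laminin alpha2, *Lama2*, the main ligand of dystroglycan in fibres, had no call in either comparison and is named here after its values were seen (log2 fold change -0.03 and 0.05). After AICAR in HSALR muscle 2 of the 13 rose, *Lama5* (0.93), another laminin chain, and *Itga7* (0.22), the alpha7 integrin, and 2 fell, *Itgb1* (-0.17) and *Bgn* (-0.47), the gene of biglycan, beside 13.7% and 13.0% of all genes. Without the libraries with *Krt14* above 1 normalized CPM, which leaves 1 vehicle-treated HSALR mouse, the *Itgb1* estimate was -0.25. In control muscle *Lama5* (0.72) and *Itgb1* (0.23) rose and 0 fell, beside 8.40% and 4.77% of all genes. This *Itgb1* call was lost when S445, S446, S448 or S449 was left out (adjusted p = 0.0776 to 0.0929, edgeR). It was also lost in edgeR on the compared groups alone (adjusted p = 0.0885) and with library size scaling (adjusted p = 0.132).

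Dystroglycan binds laminin through sugars added by a chain of enzymes, and of 17 genes for these steps that are reported 16 were tested. After vehicle 4 were higher in HSALR muscle, *Dpm3* (0.47), *Dpm2* (0.30), *Pomgnt1* (0.30) and *Gmppb* (0.27), and 2 were lower, *Pomk* (-0.39) and *B3galnt2* (-0.33). Of all genes, 15.4% were higher and 11.5% lower. After AICAR 5 were higher and 2 lower, beside 12.2% and 9.64% of all genes. The *Dpm* genes encode the synthase of dolichol phosphate mannose, while *Pomk* and *B3galnt2* encode enzymes that act one after the other on the core sugar of dystroglycan. After AICAR 1 rose and 4 fell in HSALR muscle, with log2 fold changes between -0.26 (*B3galnt2*) and 0.18 (*Rxylt1*), where 13.7% of all genes rose and 13.0% fell. The median over the 16 was 0.08 between genotypes after vehicle and -0.04 after AICAR.

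The cytoskeletal linkers beneath the membrane were 16 genes, of which 6 were higher and 2 lower in HSALR muscle after vehicle, beside 15.4% and 11.5% of all genes. The simple keratins *Krt8* and *Krt18* had the largest differences (log2 fold change 6.76 and 6.25), from 7 to 31 reads in vehicle-treated control to 672 to 2626 reads in vehicle-treated HSALR mice. *Krt8* was 30.9 normalized CPM in S451, the vehicle-treated HSALR mouse without *Krt14* above 1, and after AICAR it was 39.0 in S460 against 2.69 to 4.29 in the other 4 HSALR mice. *Flnc*, filamin C, which binds sarcoglycans, followed at 1.39 and *Sync*, syncoilin, which binds alpha-dystrobrevin, at 0.69. *Actg1* (-0.46), a cytoplasmic actin to which dystrophin binds, and *Tln2* (-0.41) were lower. The median of the list was 0.14. After AICAR in HSALR muscle *Flnc* (-0.79) and *Actb* (-0.37) were lower, and the adhesion genes *Vcl* (0.34) and *Tln1* (0.32) and the desmin gene *Des* (0.23) were higher, again beside 13.0% and 13.7% of all genes.

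**Figure D4:**
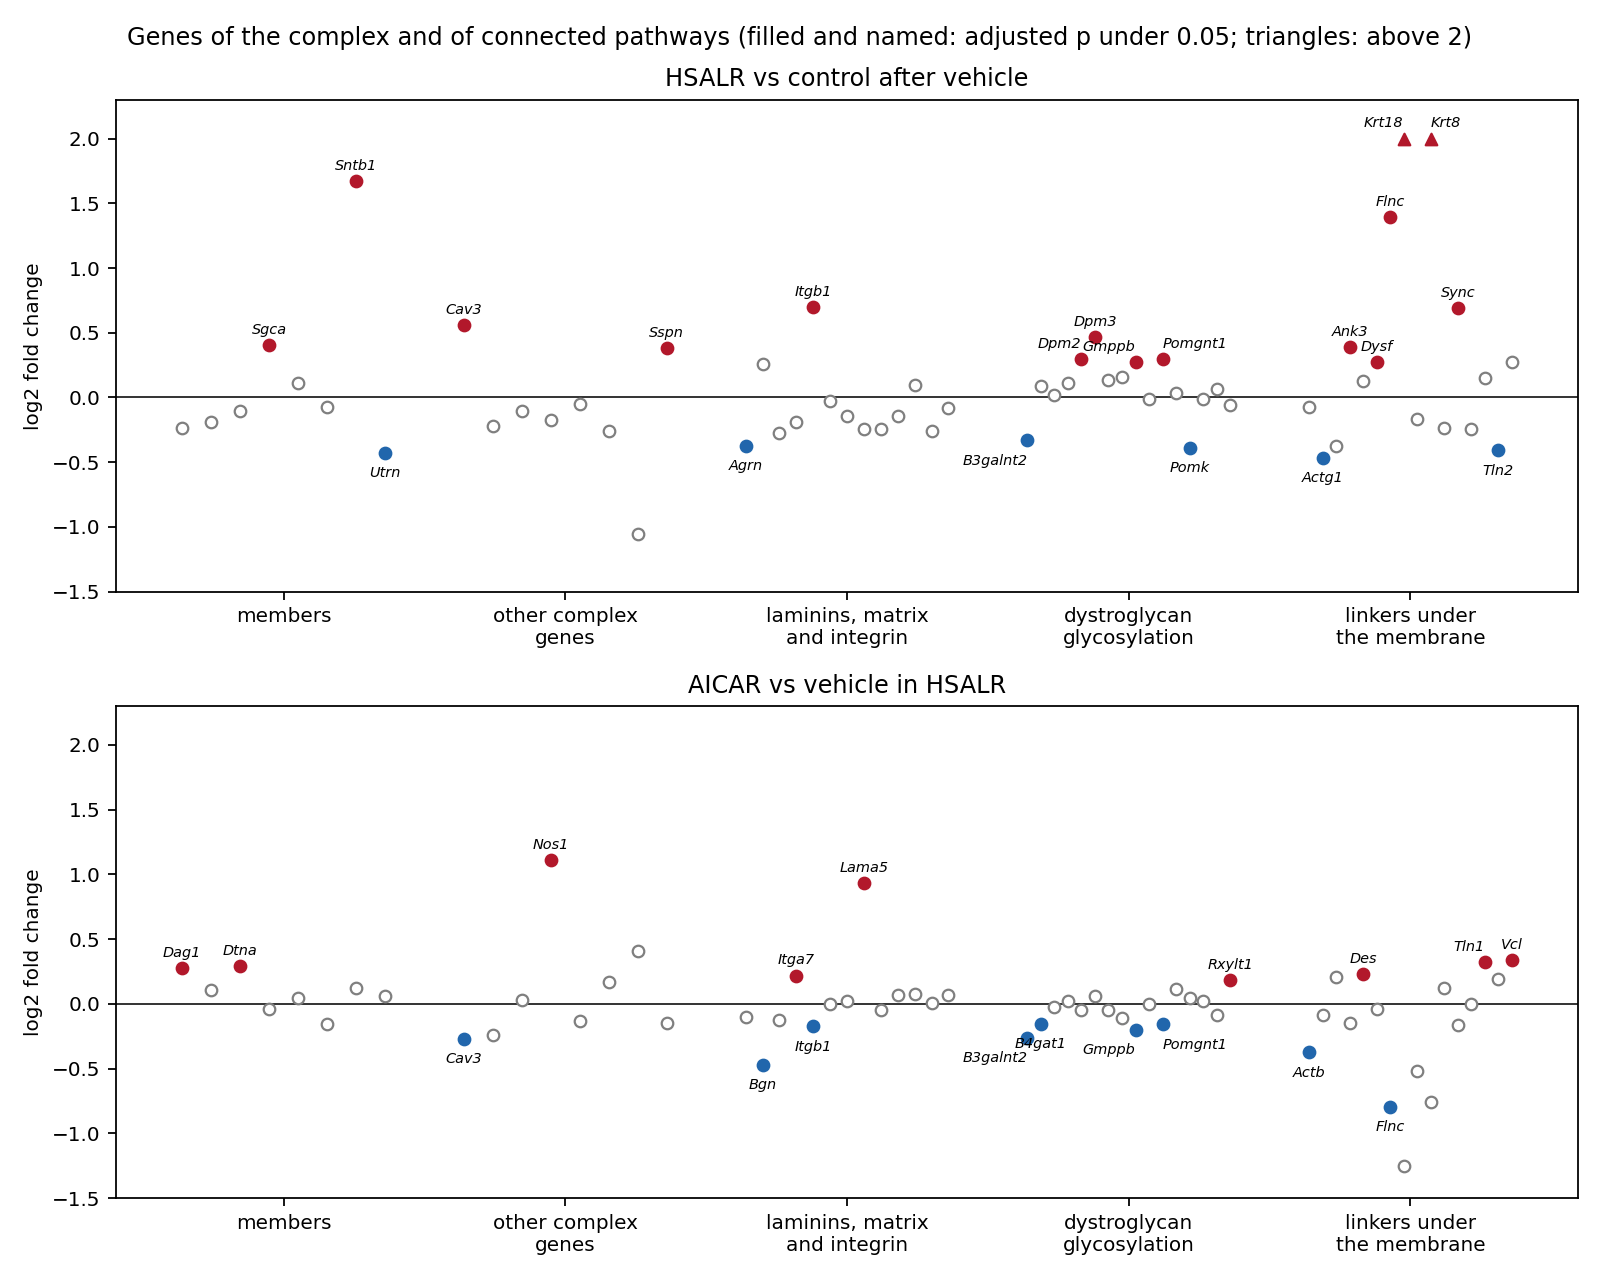
Log2 fold change (y axis) of the members and of 4 connected gene lists (x axis) in HSALR against control muscle after vehicle (top) and AICAR against vehicle in HSALR muscle (bottom). Filled, named points passed an adjusted p of 0.05, red for higher and blue for lower, and triangles lie above the axis limit of 2. In the top panel *Sntb1* (1.68), *Flnc* (1.39), *Krt8* and *Krt18* stand farthest from 0.

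Across the 16 libraries, the log2 levels of *Sgca* and *Sntb1* had a Pearson's r of 0.91, *Dag1* and *Dtna* of 0.79 and *Utrn* and *Sgca* of -0.93. These values describe libraries that share genotype, treatment and depth. Among 13000 genes with a mean of at least 50 reads, *Sntb1* was most like *Cacna2d4* (r = 0.98), *Unc5a* (0.98) and *Nsa2* (0.98), and *Sgca* like *Zdhhc4*, *Spag7* and *Dhrs1* (each 0.96). *Utrn* was closest to *Ptprm* (0.94), *Ssh1* (0.93) and *Scaf11* (0.92) and *Dmd* to *Ddx6*, *Neb* (0.91 each) and *Cnot1* (0.90). *Dag1* was close to *Atp11a* and *Vps13c* (0.92 each). *Dtna* was closest to *Gps2* (0.96), *Polr3c* (0.95) and *Ap2a2* (0.94), *Sgcb* to *Vkorc1l1* (0.91), *Srpk1* (0.88) and *Strada* (0.87), and *Sgcd* to *Ankib1* (0.93), *Trak2* (0.92) and *Mbd5* (0.91).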

How the data were processed

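Stranded RNA-seq libraries were made from *gastrocnemius* muscle of 16 mice, 1 library per mouse. The authors aligned reads with STAR 2.5.2a to mm10 and counted those that started in an exon of a RefSeq gene with QuasR, and a read with several hits was placed once. Whether strand was used is not given in the sources used here. The deposited values are raw counts per gene, and the counted length of each gene deposited beside them was used for levels per kb. Gene locations are from GRCm38.p6, the assembly of mm10, and promoters from RefSeq.

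Counts were tested with edgeR 4.0.16 (R 4.3.3; TMM, filter on low counts over the 4 groups, quasi-likelihood, 1 mean per group, all 16 libraries, Benjamini-Hochberg adjustment over 15487 genes, threshold 0.05). The labels give no batch. The ratio of *Utrn* to *Dmd* and the *Dtna* share were tested by exact permutation over mice. DESeq2 1.42.0, limma-voom 3.58.1, other scalings and filters, a correction for gene length (an offset per library from a lowess of span 0.3), fits of the compared groups alone and leaving out each mouse were tried as alternatives, and the exclusion of libraries with *Krt14* above 1 normalized CPM was chosen after seeing the data. Mice of the same group differed by more than sampling noise in each of 26 pairs (chi-square per degree of freedom 24.0 to 134). The steps were tested on simulated data. The members and gene lists were chosen with earlier results of these data known. All members were named, with up to 4 genes past the threshold per direction from each list, *Dtnb* as partner in the share and up to 3 genes most correlated with each member (log2 of normalized CPM + 0.5, mean count of at least 50). A few genes of these lists, and shares that need them, are not reported here, and list counts and medians leave them out.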

Additional observations from a re-analysis of the deposited data

Results flagged for a closer look

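In groups of 5 mice, the highest or lowest value was compared with the others by Dixon's test, which marks a value in about 1 in 20 groups by chance. Of 36 groups examined, 2 held such a value, where chance gives 1.8. *Dmd* was 172 normalized CPM in the vehicle-treated HSALR mouse S458, against 261 to 292 in the other mice of the group. In the same mouse *Sgce*, the gene of epsilon-sarcoglycan, was 12.5 normalized CPM against 9.66 to 10.1.

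The effect of AICAR on *Itgb1*, the beta1 integrin gene, passed the test of a difference between genotypes with all 16 libraries. It was 0.23 in control and -0.17 in HSALR muscle on the log2 scale, a difference of -0.40 (SE 0.08, adjusted p = 0.0336, edgeR). The call was lost in 13 of 16 fits without 1 mouse (adjusted p from 0.0168 to 0.107 over the 16, edgeR). Without the libraries with *Krt14* above 1 normalized CPM, which leaves 1 vehicle-treated HSALR mouse, the estimate was -0.49 (SE 0.12, adjusted p = 0.268, edgeR).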

How the results depend on the processing

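*Sntb1* and *Sgca* stayed higher in HSALR muscle in both comparisons of genotype without any 1 mouse. No paired analysis was possible because mice of different groups share no replicate number. Without the libraries with *Krt14*, 904 genes and 1 member were called between genotypes after vehicle, 899 genes and 0 members for AICAR in HSALR muscle, 697 genes for AICAR in control muscle and 0 genes for the difference of the AICAR effects, with fewer mice in each fit. With the compared groups alone, 1164 genes and 1 member were called for AICAR in control muscle. For AICAR-treated HSALR against vehicle-treated control mice 5 members were called, beside 2989 genes higher and 2695 lower of 14949. DESeq2 called 538 genes and 1 member for the difference of the AICAR effects. Leaving out 1 mouse gave 2214 to 3790 genes and 2 (without S449; 3 without S454) to 5 members between genotypes after AICAR, 1143 (without S449) to 1726 genes for AICAR in control muscle, and 15 (without S448) to 371 (without S460) genes for the difference of the AICAR effects. Where these counts moved, the cause was not tested.

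With scaling by library size, calls for AICAR in HSALR muscle were 1327 higher and 2962 lower (2114 and 2007 with TMM), in control muscle 916 and 890 (1301 and 738), and in AICAR-treated HSALR against vehicle-treated control mice 2408 and 3124 (3221 and 2538).

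Values without a call changed sign as follows. With the length correction, *Dmd* was 0.029 and *Dtna* 0.032 between genotypes after vehicle, *Dag1* 0.035 between genotypes after AICAR, *Utrn* 0.0096 for AICAR in control muscle and *Dmd* 0.14 in AICAR-treated HSALR against vehicle-treated control mice. Without the libraries with *Krt14*, *Sgcd* was 0.25 between genotypes after vehicle, *Dmd* -0.079 between genotypes after AICAR, *Utrn* -0.18 and *Sgca* 0.20 for AICAR in HSALR muscle, and *Utrn* -0.13 and *Dag1* -0.020 for the difference of the AICAR effects. With library size scaling, *Utrn* was -0.017 and *Sgcb* -0.029 for AICAR in HSALR muscle, and *Dag1* -0.021 in AICAR-treated HSALR against vehicle-treated control mice.

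Leaving out 1 mouse, log2 values ranged from -0.17 to 0.041 for *Sgcd* between genotypes after vehicle, and after AICAR from -0.080 to 0.24 for *Dmd* and from -0.14 to 0.10 for *Dag1*. For AICAR in HSALR muscle they ranged from -0.0035 to 0.18 for *Dmd*, from -0.010 to 0.13 for *Utrn* and from -0.13 to 0.048 for the ratio of *Utrn* to *Dmd*. For AICAR in control muscle they ranged from -0.14 to 0.028 for *Sntb1*, from -0.057 to 0.17 for *Dag1* and from -0.017 to 0.24 for that ratio, and for the difference of the AICAR effects from -0.20 to 0.020 for *Dtna*. The difference in the *Dtna* share between genotypes after vehicle ranged from -0.164 to 0.161 percentage points.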

Other observations

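Among 6 genes of satellite cells and regeneration, 3 were higher in HSALR muscle after vehicle (median log2 fold change 0.54, against 0.01 over all genes), where 15.4% of all genes were higher. After AICAR 3 were lower in HSALR and 4 in control muscle, where 13.0% and 4.77% of all genes were lower. Of 10 genes of the neuromuscular junction, where utrophin is concentrated, 3 were higher and 0 lower in HSALR muscle after vehicle (median 0.55), beside 15.4% and 11.5% of all genes. Between genotypes after AICAR 3 were higher and 1 lower, beside 12.2% and 9.64%. For AICAR against vehicle 1 was higher and 3 lower in HSALR muscle, beside 13.7% and 13.0%. In control muscle 4 were higher and 2 lower after AICAR, beside 8.40% and 4.77%. Of 6 markers of smooth muscle and pericytes, 3 were lower in HSALR muscle after vehicle (median -0.36) and 3 after AICAR (median -0.32), beside 11.5% and 9.64% of all genes.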
